A study of Mus musculus with 48 samples.

Results

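In RNA of whole mouse tibia, 10 genes of skeletal muscle fibers were followed: Acta1, Ckm, Mylpf, Myh1, Myh2, Myh4, Tnnt3, Tnnc2, Atp2a1 and Pvalb. They were chosen by name as abundant transcripts of fast muscle fibers, with earlier results of these data known. They are 10 of 29801 genes in the deposited table and were all measured in each of 12 mice. The data are FPKM, that is read fragments per length of transcript, scaled to the depth of the library, which the authors quantile normalized so that each mouse has the same set of values. The 10 genes were present in all 12 mice and varied together from mouse to mouse, 7.60-fold in their sum. None of them passed the test used for diet or age, although all 10 were higher on average in aged mice. With 3 mice per group and a wide spread between mice, this does not show that there is no difference.

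Male C57Bl6J mice, with no transgene or deletion in the labels, were fed either ad libitum (AL) with the NIH-31 diet or under caloric restriction (CR) with the micronutrient-fortified NIH-31/NIA diet for 8 weeks. The restriction was 10% in the first week, 20% in the second and 40% from the third week. Young mice were 8 to 12 weeks old at the start by the study's methods and 10 weeks by the series' design text, and aged mice were 15 to 18 months old. Each of the 4 groups, called aged AL, aged CR, young AL and young CR, held 3 mice, with 1 tibia value per mouse. By the protocol, muscle and connective tissue were taken off the tibiae before freezing, and the RNA came from powder of the whole bone with its marrow. The study also cut and pinned the right tibia of mice before the end of the diet, and the sources used here do not say whether the sequenced tibiae had been cut. In bulk RNA, more muscle fibers in the powder and more of these transcripts per fiber cannot be told apart, and where in the tibia sample the fibers were was not tested.

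In a skeletal muscle fiber, thick filaments of myosin pull on thin filaments of actin, and calcium released from the sarcoplasmic reticulum starts the pull through the troponin complex on the thin filament. Fast fibers, which make up most of the limb muscles of the mouse, use fast isoforms of these proteins, while slow fibers use isoforms from other genes. Among the fast myosin heavy chains, Myh4 encodes type IIB, Myh1 type IIX and Myh2 type IIA, and Myh7 encodes the slow type I chain, which the heart also uses. Of the other genes, Mylpf encodes the fast regulatory light chain, Acta1 the actin of the thin filament, Tnnt3 and Tnnc2 the fast troponins T and C, Atp2a1 the calcium pump SERCA1, Pvalb the calcium buffer parvalbumin, and Ckm the creatine kinase of muscle.

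The 3 fast myosin heavy chain genes lie side by side on chromosome 11 (GRCm38, GENCODE M21), all on the plus strand, within 89.4 kb: Myh2 at chr11:67171027-67197517, Myh1 at chr11:67200052-67224575 and Myh4 at chr11:67238029-67260446. Chromosome 7 holds 4 members: Ckm at chr7:19404776-19422841 (plus strand), Atp2a1 at chr7:126445858-126463108 (minus), Mylpf at chr7:127208890-127214298 (plus) and Tnnt3 at chr7:142498836-142516009 (plus). The other members are Tnnc2 at chr2:164777161-164779967, Acta1 at chr8:123891769-123894751 and Pvalb at chr15:78191114-78206400, each on the minus strand. The promoters of the neighbouring myosin genes are shown because these genes moved together over mice while their shares differed. Each is the 250 bases before the RefSeq start on GRCm38.p6, plus strand, 5′ to 3′, and capitals mark each TATAAA on either strand and a word of 20 bases that all 3 promoters hold.
Myh4, chr11:67237562-67237811: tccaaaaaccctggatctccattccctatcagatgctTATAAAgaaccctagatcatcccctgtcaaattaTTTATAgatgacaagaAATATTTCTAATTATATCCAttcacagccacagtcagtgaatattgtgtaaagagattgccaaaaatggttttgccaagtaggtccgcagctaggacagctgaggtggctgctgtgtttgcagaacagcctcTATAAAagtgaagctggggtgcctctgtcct
Myh1, chr11:67199852-67200101: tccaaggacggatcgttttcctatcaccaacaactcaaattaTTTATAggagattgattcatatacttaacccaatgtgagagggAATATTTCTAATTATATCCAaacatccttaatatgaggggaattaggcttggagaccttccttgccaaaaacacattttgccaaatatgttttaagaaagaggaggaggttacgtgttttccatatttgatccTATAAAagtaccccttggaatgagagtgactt
Myh2, chr11:67170777-67171026: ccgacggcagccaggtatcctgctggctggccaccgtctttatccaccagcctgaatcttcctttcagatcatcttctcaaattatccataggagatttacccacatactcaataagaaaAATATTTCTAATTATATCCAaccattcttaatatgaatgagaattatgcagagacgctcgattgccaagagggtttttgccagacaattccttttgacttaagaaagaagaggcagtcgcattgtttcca
The shared word, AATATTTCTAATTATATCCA, begins 163 bases before the start of Myh4, 165 before that of Myh1 and 130 before that of Myh2. It was found in 3 of the 32851 promoters of the table on either strand, which are these 3. Aligned promoters were 67.4% identical between Myh4 and Myh1, 68.6% between Myh4 and Myh2 and 76.1% between Myh1 and Myh2. TATAAA stands 31 bases before the start of Myh4 and 32 before that of Myh1, and the printed Myh2 window does not hold these letters.

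Of all 10 members, 5 held the E-box CAGCTG in the 250 bases before a RefSeq start (Acta1, Atp2a1, Ckm, Myh4 and Mylpf), against 13% of all 32851 promoters. TATAAA was found in 3 members (Acta1, Myh1 and Myh4) and in 12.4% of all promoters, a MEF2 site in 3 (Myh1, Myh4 and Pvalb) and in 2.92%, and a CArG box in 2 (Acta1 and Myh4) and in 1.47%. Both strands were searched, and a TATAAA lies within the MEF2 site in 2 of these promoters. These are matches of letters and no binding was measured. The transcripts of the fast myosins were 87.5% to 90.3% identical, and between 1.2% and 7.59% of the 100-base windows of one transcript were also found in another, so their FPKM can carry some of each other's reads.

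In the actin gene, Acta1, the young AL mice 9, 10 and 11 were at 47.5, 24.0 and 49.3 FPKM, and the young CR mice 1, 2 and 3 at 34.7, 61.0 and 17.9. The aged AL mice 13, 14 and 15 were at 47.3, 155 and 66.1 FPKM, and the aged CR mice 5, 6 and 7 at 89.2, 18.9 and 139.7. Aged AL mouse 14 and aged CR mouse 7 were above all others, while aged CR mouse 6 was close to the lowest, young CR mouse 3. By group mean the order was aged AL (89.5 ± 57.6, SD, n = 3), aged CR (82.6 ± 60.7), young AL (40.3 ± 14.1) and young CR (37.9 ± 21.7), and no neighbours in this order differed beyond their spread.

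The fast troponins Tnnt3 and Tnnc2 had the highest mean FPKM of the members. Tnnt3 was at 60.2, 43.3 and 81.4 FPKM in young AL mice 9, 10 and 11, at 65.5, 108 and 30.7 in young CR mice 1, 2 and 3, at 82.0, 294 and 104 in aged AL mice 13, 14 and 15, and at 126, 35.3 and 249 in aged CR mice 5, 6 and 7. Tnnc2 was at 67.0, 49.6 and 98.8 FPKM in young AL, 86.9, 131 and 31.2 in young CR, 90.5, 252 and 127 in aged AL and 132, 34.1 and 202 in aged CR, with the mice listed as for Tnnt3. In both genes young CR mouse 3 was the lowest and aged AL mouse 14 the highest, and the groups overlapped at either age.

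The myosin heavy chains were lower in FPKM, a level per length, than actin and the light chain in each mouse. Myh4, the type IIB chain, was at 9.57, 9.68 and 19.2 FPKM in young AL, 13.1, 17.8 and 7.11 in young CR, 17.2, 64.5 and 17.5 in aged AL and 21.98, 6.03 and 35.7 in aged CR. Myh1, the type IIX chain, was at 2.52, 1.26 and 4.67 FPKM in young AL, 3.09, 9.83 and 1.37 in young CR, 7.06, 20.3 and 8.35 in aged AL and 11.8, 3.19 and 18.2 in aged CR. For Myh1, 5 of the 6 aged mice were above 5 of the 6 young mice, and young CR mouse 2 and aged CR mouse 6 were the exceptions. Myh2, the type IIA chain, was at 1.21, 0.250 and 0.933 FPKM in young AL, 0.676, 2.599 and 0.384 in young CR, 0.961, 3.40 and 2.42 in aged AL and 3.37, 0.729 and 4.05 in aged CR. Myh1 and Myh2 had the widest ranges of the 10 genes, each 16.2-fold from young AL mouse 10 to the highest mouse. The regulatory light chain Mylpf had the narrowest, 4.65-fold, with 53.0, 44.8 and 81.1 FPKM in young AL, 76.1, 95.7 and 43.5 in young CR, 73.4, 199.7 and 85.7 in aged AL and 108, 46.7 and 202 in aged CR.

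The calcium pump Atp2a1 was at 10.4, 6.91 and 18.3 FPKM in young AL, 12.6, 21.3 and 6.52 in young CR, 15.9, 63.1 and 20.1 in aged AL and 22.4, 6.45 and 45.4 in aged CR. The calcium buffer Pvalb was at 44.0, 36.6 and 69.3 FPKM in young AL, 64.5, 71.1 and 21.4 in young CR, 63.2, 167 and 79.4 in aged AL and 82.3, 18.5 and 110.1 in aged CR. The creatine kinase Ckm was at 17.6, 13.9 and 29.2 FPKM in young AL, 24.8, 39.4 and 11.7 in young CR, 25.8, 86.4 and 31.8 in aged AL and 38.3, 10.1 and 67.4 in aged CR. In these 3 genes aged AL mouse 14 was the highest and aged CR mouse 6 the lowest, so that the aged groups held both ends of the range. Over all 10 members, aged AL mouse 14 was the highest in 8 and aged CR mouse 7 in 2, and the lowest mouse was young CR mouse 3 in 4, aged CR mouse 6 in 4 and young AL mouse 10 in 2.

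**Figure D1:**
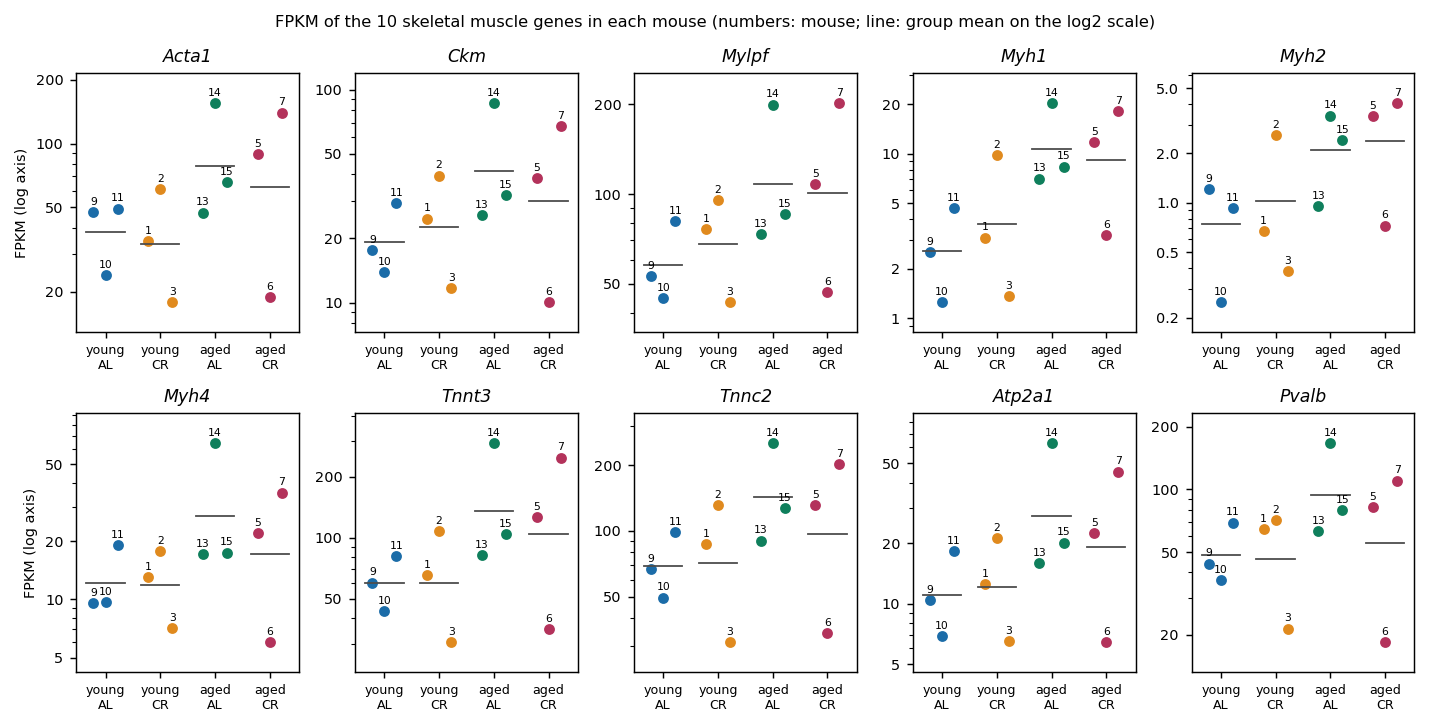
FPKM (log axis) of each of the 10 genes in each mouse by group, with the mouse number beside each point and a line at the group mean on the log2 scale. Aged AL mouse 14 and aged CR mouse 7 are at the top and young CR mouse 3, aged CR mouse 6 and young AL mouse 10 at the bottom of the panels, and the groups overlap in each panel.

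The FPKM of the 10 genes summed to 172 in young CR mouse 3 and 1306 in aged AL mouse 14, or 0.0270% and 0.205% of all FPKM of the mouse. The sum was 313, 230.4 and 452 in young AL mice 9, 10 and 11, and 382, 558 and 172 in young CR mice 1, 2 and 3. It was 423, 542 and 1306 in aged AL mice 13, 15 and 14, and 635, 180.0 and 1073 in aged CR mice 5, 6 and 7. The young mice spanned a 3.25-fold range and the aged mice a 7.26-fold range, and the aged range held the young one but for its lowest mouse.

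The spread between mice of one group was wide for these genes. The within-group SD of log2(FPKM + 1) was 0.667 for Myh2, 0.744 for Mylpf and between 0.908 and 1.002 for the other 8 members, with a median of 0.946. The added 1 narrows the SD of a gene as low as Myh2, at 0.250 to 4.05 FPKM. Over all 13590 genes tested, those with a mean of at least 1 FPKM, the median was 0.147 and the 90th percentile 0.301. Each member had a larger SD than 97.6% to 98.9% of the tested genes, with Acta1 the widest member. The 4 groups accounted for 46.97% of the variance between mice for Myh1 and 34.8% for Myh2, and for 21.4% to 28.1% for the other 8. The median was 27.3% over the members and 34.7% over all tested genes.

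**Figure D2:**
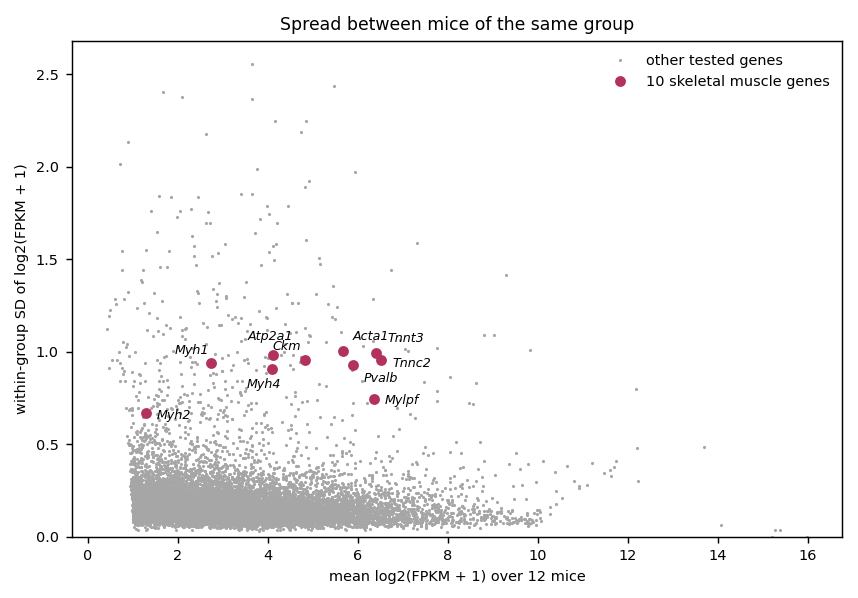
Within-group SD of log2(FPKM + 1) against the mean over 12 mice for each tested gene (grey) and the 10 skeletal muscle genes (red). The 10 genes lie between 0.667 and 1.002, above the 90th percentile of tested genes at 0.301, over a wide range of mean levels.

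The members varied together. Over 12 mice, the correlation with Acta1 on the log2(FPKM + 1) scale was highest for Tnnt3 (Pearson r = 0.985, Spearman rho = 0.958) and lowest for Myh2 (r = 0.923, rho = 0.930). For the 9 members set against Acta1, r was between 0.923 and 0.985 and rho between 0.895 and 0.972. Two-sided permutation p-values, Benjamini-Hochberg adjusted over the 9 relations, were between 1.29e-05 and 3e-05 for r and between 2.25e-05 and 0.00021 for rho, where 1e-05 is the smallest unadjusted p that the permutations can give. Without aged CR mouse 7 and aged AL mouse 14, the mice farthest from the median of Acta1, r was between 0.859 (Myh1) and 0.976 (Tnnt3). With group means subtracted, r was between 0.932 (Myh4) and 0.983 (Tnnt3), so the relation also held within groups. All 45 pairs of members had r between 0.786 and 0.991, with a median of 0.948. The points share the quantile normalization, and no labels give an extraction or sequencing batch within which the relation could be repeated. As the members were chosen with earlier results of these data known, these p-values are not an independent test of the relation.

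The members did not keep a fixed ratio to each other. The ratio of Tnnt3 to Acta1 stayed between 1.27 and 1.89, a 1.49-fold range, and that of Tnnc2 between 1.41 and 2.51. That of Myh1 had a 3.23-fold range and that of Myh2 a 4.09-fold range, from 0.0104 in young AL mouse 10 to 0.0426 in young CR mouse 2. Young AL mouse 9 had the lowest ratio to Acta1 of Ckm, Mylpf, Myh4, Tnnt3, Tnnc2 and Atp2a1, 6 of the 9 members.

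For the makeup of the fiber types, the FPKM of Myh4, Myh1, Myh2 and the slow Myh7 were taken as shares of their sum, as a description with no test. Myh4 held the largest share in each mouse. Its share was 66.1%, 86.5% and 77.4% in young AL mice 9, 10 and 11 and 77.6%, 58.9% and 80.1% in young CR mice 1, 2 and 3. In the aged mice it was 68.0%, 73.1% and 59.9% in AL mice 13, 14 and 15 and 56.7%, 60.1% and 61.6% in CR mice 5, 6 and 7. The type IIB share of 4 young mice was thus above that of each aged mouse, and young AL mouse 9 and young CR mouse 2 lay within the aged range.

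Myh1 held 17.4%, 11.2% and 18.8% in young AL mice, 18.4%, 32.5% and 15.4% in young CR mice, 27.9%, 23.0% and 28.7% in aged AL mice and 30.4%, 31.8% and 31.4% in aged CR mice. Of the 6 young mice, 5 were below each aged mouse, and young CR mouse 2, with 32.5%, was above them all. The ratio of Myh1 to Myh4 was 0.263, 0.130 and 0.243 in young AL, 0.236, 0.552 and 0.192 in young CR, 0.410, 0.315 and 0.478 in aged AL and 0.537, 0.529 and 0.510 in aged CR. The 3 aged CR mice lay close together in this ratio, although the summed FPKM of the 10 genes differed 5.96-fold between them. The Myh2 share was between 2.24% (young AL mouse 10) and 8.68% (aged CR mouse 5), and the groups overlapped.

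**Figure D3:**
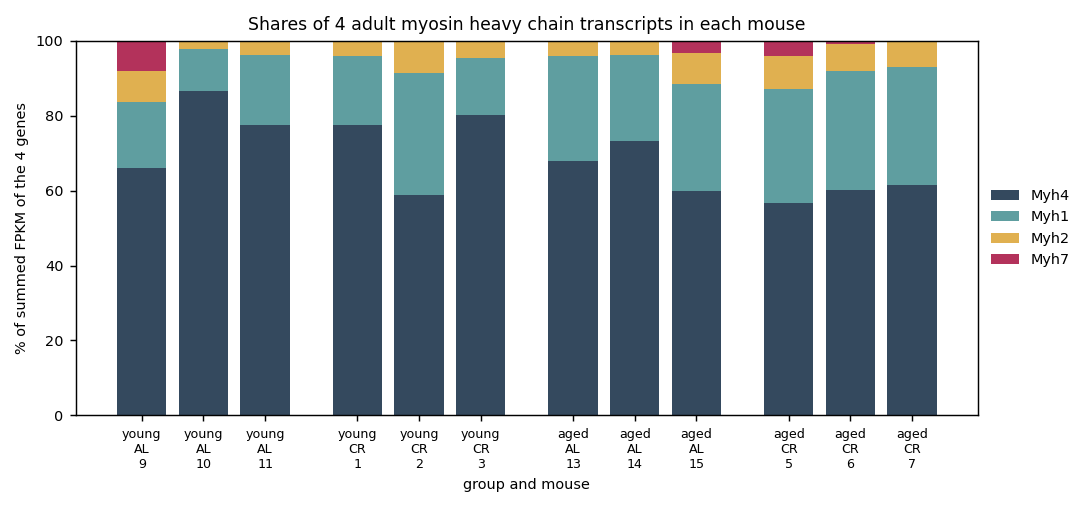
Shares (%) of Myh4 (type IIB), Myh1 (IIX), Myh2 (IIA) and Myh7 (slow type I) in their summed FPKM for each mouse, by group. Myh4 is the largest part of each bar, 56.7% to 86.5%, and Myh7 is visible in young AL mouse 9, aged AL mouse 15 and aged CR mouse 5, with a thin edge in aged CR mouse 6.

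Of the 10 genes of the slow fiber list, Myl2, Tnnc1, Myl3, Tnni1, Myh7, Tnnt1 and Myh7b were each higher in the same 3 mice than in the other 9. None of these 3 mice was the highest in a fast member. The pattern was seen in the values and not looked for by a rule. Myl2, the slow and cardiac regulatory light chain, was at 11.4 FPKM in young AL mouse 9, 11.1 in aged AL mouse 15 and 19.2 in aged CR mouse 5, and between 1.12 and 4.23 in the other 9 mice. Tnnc1, the slow and cardiac troponin C, was at 7.77, 5.46 and 11.9 FPKM in the same mice and between 0.321 and 1.6 in the others. These 3 mice stood apart from the other 9 in both genes, with no overlap. Myl3, the slow light chain that pairs with Myh7, was at 3.92, 3.69 and 5.004 FPKM in them and at most 1.06 elsewhere. Tnni1, the slow troponin I, was at 3.30, 1.70 and 4.58 FPKM in these mice and at most 0.284 in the others, 4 of which are listed at 0. Myh7 itself was at 1.16, 0.920 and 1.63 FPKM there, at most 0.0797 elsewhere, and listed at 0 in 4 mice. Aged AL mouse 14, the highest in 8 of the fast members, was the lowest of the 12 mice in Myl2 (1.12 FPKM), Tnnc1 (0.321) and Tnnt1 (5.59). Tnnt1, the slow troponin T, was at 14.4, 15.4 and 19.3 FPKM in mice 9, 15 and 5 and at most 12.5 in the others. Myh7b, low in all mice, was at 0.105, 0.0711 and 0.108 FPKM in mice 9, 15 and 5 and at most 0.0671 in the others. Myoz2, Casq2 and Csrp3 did not set the same mice apart. Myoz2, a Z-disc gene, was at 1.46, 1.49 and 2.66 FPKM in mice 9, 15 and 5, but also at 1.595 in young CR mouse 2 and 2.12 in aged CR mouse 7, and Casq2, the cardiac and slow calsequestrin, was highest in aged CR mouse 7 (0.655). Their r with the mean deviation of the fast members, the measure of likeness described with the muscle lists, was 0.74 and 0.68. Csrp3, a muscle LIM protein, was at 2.47, 3.74 and 2.87 FPKM in mice 9, 15 and 5 and at 2.88 in aged CR mouse 7.

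The ratio of the fast to the slow troponin C, Tnnc2 to Tnnc1, was 8.62 in young AL mouse 9, 11.1 in aged CR mouse 5 and 23.2 in aged AL mouse 15, close to the 24.5 of young CR mouse 3 and the 33.3 of aged CR mouse 6. It was between 40.1 and 113 in 5 other mice, 298 in aged CR mouse 7 and 786 in aged AL mouse 14. The ratio of Mylpf to Myl2 was lowest in the same 3 mice (4.64, 5.61 and 7.72) and highest in aged AL mouse 14 (178). The 3 mice came from 3 groups. As the mice fall into separate sets in the slow genes, no correlation over all mice is given for these pairs. Heart muscle also uses Myl2, Myl3, Tnnc1 and Myh7. Of the cardiac list, the myosin Myh6 was at most 0.0557 FPKM, and Tnni3, the cardiac troponin I, was at 1.65 to 4.24 FPKM and highest in aged CR mouse 5; the part of cardiac genes in the slow values was not tested.

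**Figure D4:**
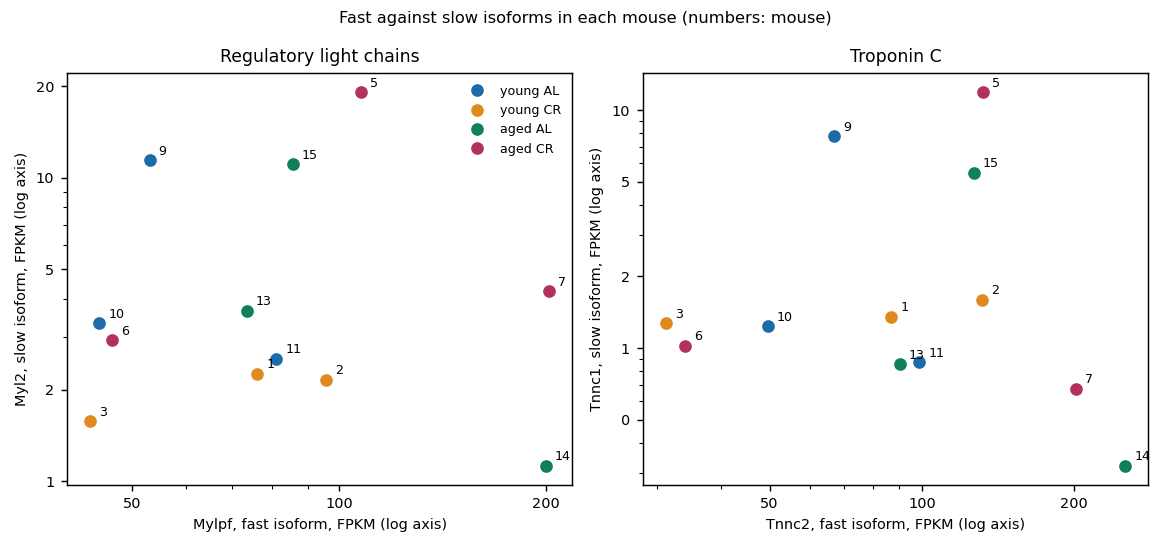
FPKM (log axes) of the slow against the fast isoform in each mouse, for the regulatory light chains (Myl2 against Mylpf) and troponin C (Tnnc1 against Tnnc2), colored by group and numbered by mouse. Mice 9, 15 and 5 stand above the others in both slow genes, and aged AL mouse 14 is at the lower right.

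The question whether CR changed these transcripts was tested in limma with 1 model of the 4 group means on log2(FPKM + 1), over all 13590 genes. Of the 10 members, 0 passed an adjusted p of 0.05 for CR against AL in young mice, where 0.0662% of tested genes passed, and 0 in aged mice, where the percentage was 0. Without adjustment 0 members were under 0.05 at either age, against 11% of tested genes in young and 7.72% in aged mice. The groups overlapped for all 10 members at both ages, while they did not overlap for 19.5% of tested genes in young and 11% in aged mice.

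In young mice the log2 fold changes ran from -0.18 (Acta1, SE 0.70, adjusted p = 0.952 in limma, 95% interval -1.71 to 1.35) to 0.41 (Myh1, SE 0.66, adjusted p = 0.86, -1.03 to 1.85). The median over the members was 0.085 and 7 of 10 were above 0, beside a median of 0.0082 over all tested genes. In aged mice they ran from -0.76 (Pvalb, SE 0.64, adjusted p = 0.831, -2.17 to 0.66) to 0.12 (Myh2, SE 0.47, adjusted p = 0.975, -0.91 to 1.15), with a median of -0.42 and 1 of 10 above 0. The median over all tested genes was -0.0044 there. The young intervals of Acta1 and Myh1 include 2-fold changes in either direction. Single mice set the direction: the aged median was 0.12 with aged AL mouse 14 left out, 0.33 with aged CR mouse 6 left out and -1.02 with aged CR mouse 7 left out, and the young median was -0.28 with young CR mouse 2 left out, -0.18 with young AL mouse 10 left out and 0.51 with young CR mouse 3 left out. Averaged over both ages, the median CR effect was -0.19, with 3 of 10 above 0 and 0 called, where 0.258% of tested genes were called, and the direction of this median turned without aged CR mouse 6 (0.18), aged AL mouse 14 (0.099) or young CR mouse 3 (0.044). For the difference of the CR effect between aged and young mice the median was -0.60, or 0.12 without aged CR mouse 6, and 0 members and 0% of tested genes passed, and 0 members and 4.23% of genes were under an unadjusted p of 0.05. With a quality weight per mouse, the median CR effect was 0.32 in young mice, 0.41 in aged mice and 0.37 over both ages, and the difference was 0.033, so the direction turned in all but the young mice.

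In aged against young mice over both diets, all 10 members were higher on average and 0 passed the test, where 0.758% of tested genes passed. The log2 differences were 1.41 for Myh1 (SE 0.46, adjusted p = 0.177 in limma, 95% interval 0.39 to 2.43) and 0.78 for Myh2 (SE 0.33, adjusted p = 0.274, 0.047 to 1.504), the 2 members under an unadjusted p of 0.05, against 16.6% of tested genes. For the other fast contractile genes they were 0.98 for Tnnt3, 0.94 for Acta1, 0.79 for Myh4, 0.74 for Tnnc2 and 0.72 for Mylpf, with SE between 0.37 and 0.49. They were 0.93 for Atp2a1, 0.73 for Ckm and 0.61 for Pvalb, with SE between 0.46 and 0.48. The smallest adjusted p among these 8 was 0.348, for Tnnt3. The median was 0.78 over the members and -0.017 over all tested genes. With a pseudocount of 0.1, which narrows low genes less, the difference was 1.69 for Myh1 and 1.31 for Myh2, and 0 members passed. The young and aged mice overlapped for all 10 members, as for all but 1.34% of tested genes. Without 1 mouse at a time the median was between 0.58 and 1.12. It was 0.30 with aged AL mouse 14 and aged CR mouse 7 left out, where the choice of the 2 mice highest in the members, made after seeing the data and both aged, itself lowers the aged level.

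**Figure D5:**
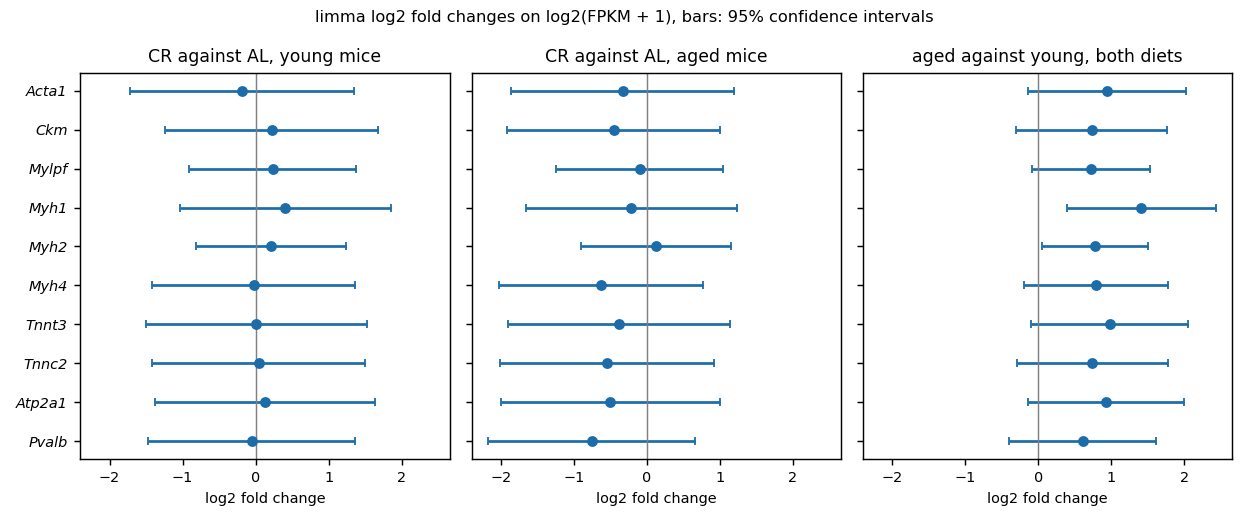
limma log2 fold changes of the 10 genes on the log2(FPKM + 1) scale with 95% confidence intervals, for CR against AL in young mice, CR against AL in aged mice, and aged against young mice. The intervals include 0 for all genes in both diet comparisons and for 8 of 10 genes in the age comparison.

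Other genes of the muscle fiber, from lists chosen with earlier results of these data known, moved with the members. As a measure of likeness, Pearson r over 12 mice was taken between the log2(FPKM + 1) of a gene and the mean deviation of the 10 members, and it is given with no p, since mice, normalization and powder are shared. Of the muscle energy list, 11 of 11 tested genes had r over 0.9, led by Eno3, the muscle enolase (r = 0.985), and Pygm, the glycogen phosphorylase of muscle (0.976). Of the thin filament and Z-disc list it was 10 of 11, with Tnni2, the fast troponin I, at 0.986 and Tpm2, a tropomyosin, lowest at 0.854. Of the myosin partners it was 5 of 6, with the light chain Myl1 at 0.974 and the M-band gene Myom1 at 0.580. Of the genes for excitation and calcium release it was 4 of 7, with Casq1, the calsequestrin of fast fibers, at 0.967. Of the slow fiber list it was 0 of 6, with a median r of 0.17. Over all 13580 other tested genes, 0.427% had r over 0.9 and the median was -0.042.

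By the rule for likeness, the 20 genes most like the members were Myoz1, Mylk2, Tnni2, Eno3, Eef1a2, Ldb3, Trdn, Mybpc2, Myom2, Slc25a4, Pygm, Rtn2, Myl1, Smpx, Ckmt2, Myot, Casq1, Ankrd23, Cox6a2 and Des, with r from 0.992 down to 0.964. Of these, 14 are in the muscle lists, and 17 were also among the first 20 with group means subtracted. Myoz1, a Z-disc protein of fast fibers, ranged from 3.36 FPKM in young CR mouse 3 to 23.7 in aged AL mouse 14, and Mylk2, the myosin light chain kinase of skeletal muscle, from 0.452 to 4.36 in the same mice. Slc25a4, the mitochondrial carrier of ATP and ADP in muscle and heart, had r = 0.979 but ranged only from 31.4 to 67.3 FPKM. In all, 58 of 13580 genes had r over 0.9, 30 of them in the muscle lists and 27 in no list, and 0 had r under -0.9. The 5 genes with the lowest r were Lcn2 (-0.90), Galnt3 (-0.88), Tiam2 (-0.87), Prox2 (-0.87) and Pxylp1 (-0.85).

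In aged against young mice 0 genes of these muscle lists passed the test. Without adjustment, 6 of 11 thin filament and Z-disc genes, 3 of 11 energy genes, 2 of 6 myosin partners and 2 of 7 genes of excitation and calcium were higher in aged mice at p under 0.05, beside the 16.6% of tested genes in either direction given above. Their medians were 0.73, 0.66, 0.67 and 0.48 on the log2 scale. For the slow fiber list the median was 0.35, with 0 of 6 under 0.05.

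Markers of tissues next to muscle did not all follow the members. Of the genes of muscle precursors, Pax7 was at most 0.0697 FPKM, Myog at most 0.0810, and Myf5 is listed at 0 in all mice. The summed level of the 8 developmental and myogenic genes was 0.00510 to 1.31 FPKM, highest in aged AL mouse 14. In this list Myf6 reached 1.05 FPKM (r = 0.91) and Myh8 0.211 (r = 0.86), both in that mouse. The r of Pax7 was -0.071 and that of Myog 0.0066. At the nerve contact, Chrna1, of the acetylcholine receptor, was at most 0.104 FPKM and listed at 0 in 4 mice, and Musk at most 0.0484 and listed at 0 in 8. Chrnb1, of the same receptor, was at 1.17 FPKM in young AL mouse 9, 2.06 in aged AL mouse 15 and 1.99 in aged CR mouse 5. It was at most 0.861 in the other mice. Ache, which marrow also expresses, was at 14.6 to 31.3 FPKM. The tendon genes that could be tested, Fmod and Thbs4, had r of -0.25 and -0.22, and the tendon marker Tnmd was at most 0.972 FPKM. The 7 Schwann cell genes summed to 1.85 to 3.10 FPKM and the 2 skin keratins to 0.262 to 0.663. The 5 sarcolemma genes summed to 1.58 to 4.90 FPKM with aged AL mouse 14 highest, the 5 atrophy genes to 1.70 to 4.23, and the 4 cardiac genes in the table to 2.12 to 4.61. Of the smooth muscle list 1 of 4 tested genes had r over 0.9, which was Des, desmin, an intermediate filament of both skeletal and smooth muscle (0.964), while Acta2 was at 0.28.

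Bone genes ran the other way in aged AL mouse 14. All 7 osteoblast and osteocyte genes had a negative r with the members, between -0.68 (Dmp1) and -0.40 (Col1a1), and each had its lowest value in this mouse. Sost, the osteocyte inhibitor of bone formation sclerostin, was at 3.24 FPKM there and at 7.38 to 27.2 in the other 11 mice. Mepe was at 4.50 FPKM against 11.3 to 46.2, and Phex, an osteocyte peptidase, at 1.78 against 3.08 to 7.55. Aged CR mouse 7, the second highest in muscle transcripts, was within the range of the others, with Sost at 12.3 FPKM and Dmp1 at 19.4. The 6 cartilage and synovium genes had r between -0.59 and -0.27, the 5 adipocyte genes between -0.20 and 0.082, and the 6 marrow leukocyte genes between -0.54 and 0.21. The part of the bone genes in the spread of the muscle genes was not tested.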

How the data were processed

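RNA of whole tibiae from 12 mice was sequenced by the authors from stranded mRNA libraries (TruSeq, Illumina), with 4 technical repeats per mouse, 48 libraries in the labels. Per the labels and the study's methods, reads were checked with FastQC 0.11.8 and MultiQC 1.6, trimmed with Trim Galore 0.5.0, aligned to mm10 with STAR 2.6.1 and quantified with StringTie 2.1.3b. The deposited values are FPKM that the authors quantile normalized in R 4.1.1, with a single column for each mouse. The sources used here do not give the annotation release or how technical repeats were merged. Across mice, values of equal rank lay within 0.00936 FPKM of each other, so a level is a rank within its mouse and not an absolute amount, and a gene can shift because others do. The depth per mouse is unknown, so no counting error is given, and an FPKM of 0 is written as listed at 0.

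Values were taken as log2(FPKM + 1), which understates changes of low genes. The 13590 genes with a mean FPKM of 1 or more were tested in limma 3.58.1 (R 4.3.3) with the 4 group means, a mean-dependent prior variance and Benjamini-Hochberg adjustment, called at 0.05. The fit was tested on simulated data. Each column was taken as 1 mouse by the numbers in its name and in the labels, and p-values measure the spread between these mice. Correlations used 100000 permutations of the mice. The mean deviation of the members is the mean, over the 10 genes, of a mouse's log2(FPKM + 1) minus the gene's mean over mice. The members and the gene lists were chosen with earlier results of these data known. Named besides the members were the 20 genes of highest and the 5 of lowest r with this deviation, and of a list any gene, as a rule those with the highest mean FPKM. Mymk and Cnmd were matched under the names Tmem8c and Lect1 in the table. Nppa, Myl7 and Krt14 of the lists were not analysed here. Positions are from GENCODE M21 on GRCm38. Promoters are from RefSeq on GRCm38.p6, and all 10 members matched by symbol, Pvalb with 2 starts, either of which counted. Transcripts were aligned with Biopython 1.88. Protein sequences were not used here.

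Alternatives were a pseudocount of 0.1, no filter on low values, quality weights for the mice (limma), leaving out single mice, separate fits for young and for aged mice, the unequal-variance test that the study's methods name, run on FPKM, and the mean deviation of the members as a covariate.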

Additional observations from a re-analysis of the deposited data

How the results depend on the processing

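No member was called under the alternatives run on the members: 0 of 10 in the 5 comparisons with the other pseudocount, without the filter, with quality weights and with mice left out, and 0 of 10 for CR at each age in the 2-group fit and the unequal-variance test. The covariate was run only over the other genes. Over the 5 comparisons, all 50 member fold changes kept their direction with a pseudocount of 0.1, without the filter, and without the 2 mice highest in the members (aged CR mouse 7 and aged AL mouse 14, a choice made after seeing the data), while 23 of 50 changed direction with a quality weight per mouse and 81 of 600 with a mouse left out. The quality weight was lowest, 0.259, for aged AL mouse 14, and with it Acta1 in young mice turned to 0.066, the members' median to 0.41 for CR in aged mice and 0.37 over both ages, and the difference of the CR effect to 0.033. With each mouse left out, the CR effect ranged from -0.60 to 0.26 for Acta1 and from -0.19 to 0.90 for Myh1 in young mice, and from -0.20 to 0.60 for Myh2 and from -1.24 to 0.012 for Pvalb in aged mice. With a mouse left out, the members' median ranged from -1.02 to 0.33 for CR in aged mice, -0.28 to 0.51 in young mice, -0.49 to 0.18 over both ages and -1.10 to 0.12 for the difference. The 10 members were higher in aged than in young mice under each alternative that gives this comparison.

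Counts of called genes over the whole table moved more. For CR in young mice, 9 genes were called, 5 without the filter, 304 with quality weights, 74 in the fit of those 2 groups, 0 in the unequal-variance test, 20 without the 2 mice highest in the members, and 0 to 44 with a mouse left out. For CR in aged mice, 0 genes were called (1049 at an unadjusted p under 0.05), 1 without the filter, 193 with quality weights, and 0 to 7 with a mouse left out. For CR over both ages, 35 were called, 9 without the filter, 923 with quality weights, 13 of the other genes with the members' mean deviation as a covariate, and 8 to 222 with a mouse left out. For age, 103 were called, 44 without the filter, 1798 with quality weights, 17 with the covariate, 50 without those 2 mice, and 21 to 221 with a mouse left out. For the difference of the CR effect, 0 were called (575 unadjusted), 1 with quality weights, and 0 to 1 with a mouse left out. The cause was not tested. Correlations with Acta1 stayed past the threshold with group means subtracted and without the 2 farthest mice, and 66 genes against 58 had r over 0.9 with group means subtracted. No paired analysis was possible because the mouse numbers differ between all groups and the technical repeats are not given as separate columns.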
